A study of Rattus norvegicus with 47 samples.

Results

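Of the solute carriers measured in the medial prefrontal cortex of the rat, 144 genes are described here. Solute carriers are membrane proteins that move glutamate, glucose, amino acids, ions, metals and metabolites across the cell surface and the membranes of organelles. A gene was taken in where its single symbol in the array annotation was Slc followed by a family number, a letter and a member number, and where the mean of its brightest probe set over all arrays reached 5.7 on the log2 scale. The glial glutamate carriers Slc1a2 and Slc1a3 are left out by name. The rule found 144 genes of the 210 solute carrier genes with a probe set in the table, or of the 7938 genes of any kind at that signal, and the other 66 lay below it. The rule used the mean over all arrays and neither rearing nor age. Just inside it lay Slc13a3 at 5.72, Slc35f1 at 5.73 and Slc5a3 at 5.73, and just outside it lay Slc35b3 at 5.57, Slc52a2 at 5.57 and Slc25a20 at 5.56.

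The tissue came from Wistar rats, an outbred laboratory strain, kept in social groups (Soc) or reared in isolation (Iso), and taken at 4 ages named by postnatal day: P30, P40, P60 and P80. No genotype, drug or further treatment is named for any group. Each of the 8 groups held 6 arrays, apart from Iso P40 with 5, and arrays 3 and 4 of Iso P30, which lay closer together than any other pair, were averaged into 1 sample, so Iso P30 had n = 5. The values are log2 MAS5 signals, a probe set summary of Affymetrix arrays, and a probe set is a group of short probes for one transcript. Signals of different probe sets depend on their probes. A brighter gene is therefore not read here as one with more RNA than another.

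In the cortex, carriers set how long a transmitter acts and how much of it a vesicle holds. Excitatory and inhibitory terminals fill their vesicles through different carriers, which makes these genes markers of the cells that use them. Potassium-chloride carriers keep the chloride gradient that GABA receptors work on, glucose and lactate carriers feed neurons and astrocytes, and the inner membrane of mitochondria passes ADP, ATP, phosphate and amino acids through the large Slc25 family. The heavy chains Slc3a1 and Slc3a2 carry no solute alone: they bring light chains of the Slc7 family to the surface.

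Markers of the labelled tissue were present, with Neurod6, a factor of cortical excitatory neurons, at 8.94 on the log2 scale, Gad1 of inhibitory neurons at 10.36, Gfap of astrocytes at 10.17 and Mbp of oligodendrocytes at 11.61, as means over all arrays. Of the choroid plexus markers only Ttr reached the threshold, and its group means differed widely, 9.70 in Soc P30 against 6.58 in Iso P30, and 6.05 in Soc P40 against 8.01 in Iso P40. The signal of the 3' Gapdh control over that of the 5' one, a ratio that is higher in shortened RNA, differed between the rearings at every age. Its median was 1.53 in Soc P30 and 1.32 in Iso P30, 1.63 in Soc P40 and 1.87 in Iso P40, 1.99 in Soc P60 and 1.37 in Iso P60, and 1.89 in Soc P80 and 1.57 in Iso P80. The groups did not overlap in this ratio at any age. Rearing and that shift cannot be told apart by group, so each difference below is one between the groups. The model was also fitted with the ratio as a covariate. In bulk tissue, fewer cells of a type and less RNA per cell cannot be told apart.

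The promoters of Slc17a7 and Slc32a1 are shown because these carriers fill glutamate and GABA vesicles and were called in the same direction at 3 ages. Each line holds the 250 bases before the start of the gene, 5′ to 3′ on the gene's strand, from RefSeq on GRCr8, and capitals mark the GC box GGGCGG or its reverse complement. They lie at chr1:104785955-104786204 and chr3:167686995-167687244, both on the plus strand.
Slc17a7: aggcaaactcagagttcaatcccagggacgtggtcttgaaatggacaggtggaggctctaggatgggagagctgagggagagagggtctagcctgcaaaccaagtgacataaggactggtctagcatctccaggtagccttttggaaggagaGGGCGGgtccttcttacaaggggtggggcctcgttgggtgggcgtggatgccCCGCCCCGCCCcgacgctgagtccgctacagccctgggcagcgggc
Slc32a1: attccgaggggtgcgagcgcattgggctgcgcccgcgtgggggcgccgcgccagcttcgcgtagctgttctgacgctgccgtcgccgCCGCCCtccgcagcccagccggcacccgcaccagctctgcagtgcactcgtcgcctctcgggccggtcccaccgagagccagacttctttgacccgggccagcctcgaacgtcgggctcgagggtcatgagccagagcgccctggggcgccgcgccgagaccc
The GC box occurred 3 times in the window of Slc17a7, with a pair of overlapping copies on the minus strand, and 1 time in that of Slc32a1. The motifs TGACGTCA, TGATGNAA and CACGTG were also searched on both strands and had 0 matches in both windows, which says only that these letters are not there. Of the 120 carriers with a promoter in the table, 62.5% held GGGCGG, against 62.4% of the 6657 genes at the same signal and 32.4% of all 27457 genes. The corresponding shares were 2.5%, 3.3% and 1.7% for TGACGTCA, 5.0%, 1.6% and 3.3% for TGATGNAA, and 10.8%, 8.7% and 5.8% for CACGTG. A match describes the sequence and is not a binding site.

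Some carriers differed between Iso and Soc at every age, and the share called was near that of all genes. The number called grew from 25 of 144 at P30 to 37 at P40, 74 at P60 and 67 at P80, by limma with Benjamini-Hochberg adjustment at 0.05. The shares of all 12233 probe sets called were 19.9% at P30, 28.2% at P40, 52.9% at P60 and 47.5% at P80, against 17.4%, 25.7%, 51.4% and 46.5% of the carriers. With the Gapdh ratio in the model 16 carriers were called at P30, 33 at P40, 40 at P60 and 48 at P80, and of the original calls 13, 25, 30 and 41 held. Of the carriers, 4 were higher and 21 lower in Iso at P30 (7.64% and 12.2% of all probe sets), 18 higher and 19 lower at P40 (13.7% and 14.5%), 34 higher and 40 lower at P60 (23.7% and 29.2%), and 37 higher and 30 lower at P80 (23.4% and 24.1%). Centring each array on its median gave 2 higher and 28 lower at P30, 28 higher and 13 lower at P40, 24 higher and 48 lower at P60, and 43 higher and 21 lower at P80, while the median of all probe sets moved by -0.047 at P30, 0.038 at P40, -0.054 at P60 and 0.029 at P80. The median carrier differed by -0.007 at P30, 0.01 at P40, -0.021 at P60 and 0.04 at P80, where the medians of all probe sets were 0.003, 0.008, -0.022 and -0.004.

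**Figure D1:**
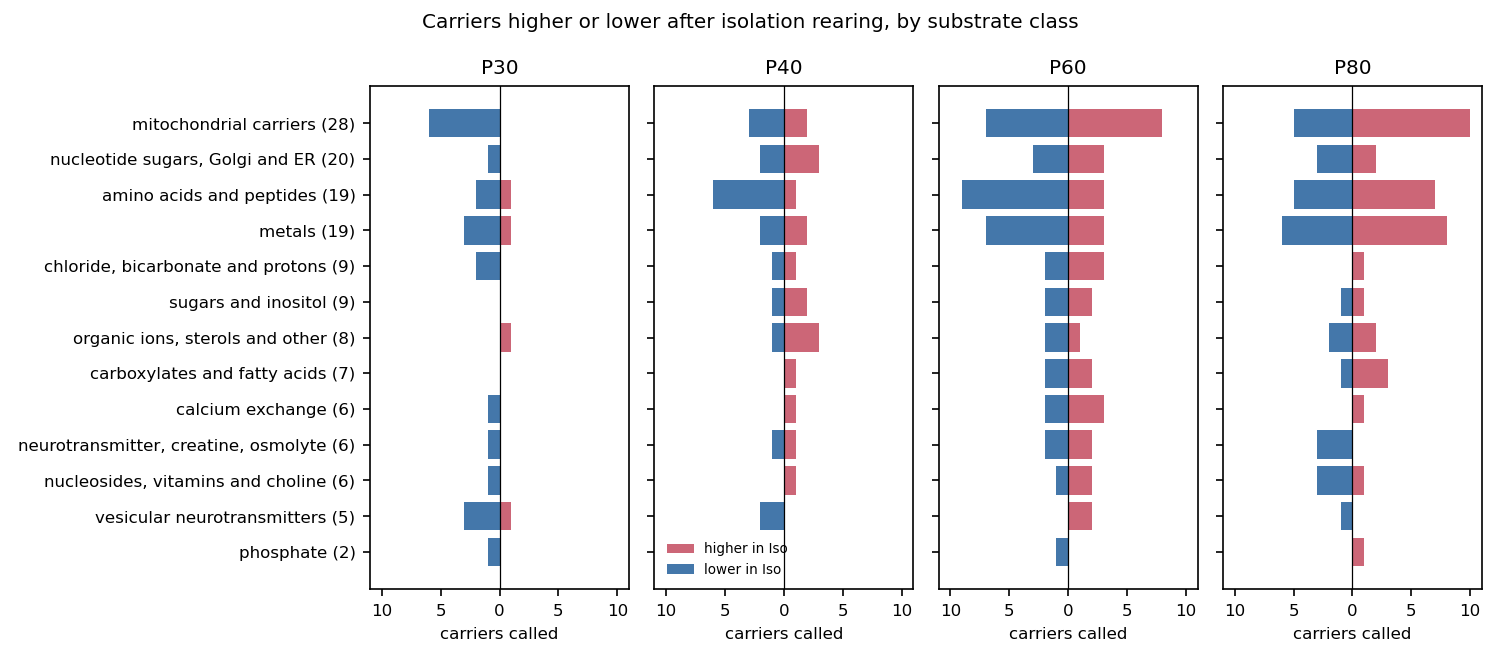
Number of carriers called higher (right of 0) or lower (left of 0) in Iso than in Soc at each age, by substrate class, with the number of carriers of the class in brackets. Of 28 mitochondrial carriers, 6 were called at P30, all lower, and 15 at P60 and at P80, in both directions. The shares of all probe sets called at these ages were 19.9%, 52.9% and 47.5%.

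The changes were small. No carrier called at P30 differed by more than 0.5 on the log2 scale, and 2 did at P40, 7 at P60 and 2 at P80. All samples of the Iso group lay below all of the Soc group for 10 carriers at P30 (7.12% of all probe sets did so) and above for 0 (2.85%). At P40, 7 carriers lay wholly above (5.31%) and 8 below (7.00%), at P60 15 above (14.0%) and 21 below (15.9%), and at P80 14 above (11.7%) and 10 below (12.5%). Over the 4 ages, 29 carriers (20.1%, against 21.2% of all probe sets) were called at no age, 54 (37.5%, against 31.4%) at 1, 38 (26.4%, against 28.8%) at 2, 19 (13.2%, against 15.0%) at 3 and 4 (2.78%, against 3.64%) at all ages. These 4 were Slc17a7, Slc3a1, Slc25a4 and Slc25a5. The labels leave it unsaid whether each sample is its own animal, so the p-values describe the spread among these samples, part of which may be technical.

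**Figure D2:**
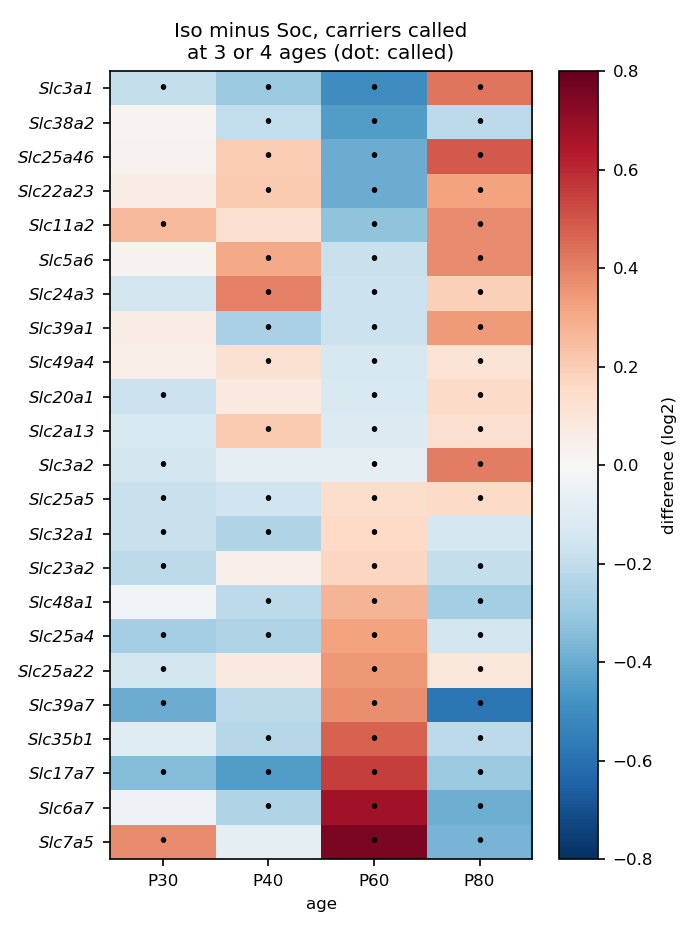
Iso minus Soc difference (log2, colour) of the 23 carriers called at 3 or 4 ages, ordered by the difference at P60, with a dot where limma called it. Of these, 11 were higher and 12 lower at P60.

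Slc17a7, the carrier that loads glutamate into vesicles of cortical excitatory neurons, was called at all 4 ages and turned direction at P60. At P30 the Iso samples read 10.13, 10.16, 10.19, 10.25 and 10.30, and the Soc samples ran from 10.50 over a median of 10.55 to 10.63. At P40 the Iso samples read 9.98, 10.03, 10.09, 10.10 and 10.17, against 10.42, 10.50 and 10.63 for the lowest, median and highest Soc sample. Every Iso sample was below every Soc sample at both ages, with mean differences of -0.35 ± 0.040 (SE) at P30 and -0.45 ± 0.040 at P40 (limma, adjusted p = 3.92e-09 and 1.27e-12). At P60 the order was the reverse, with Iso at 10.53, 10.59 and 10.68 and Soc at 9.99, 10.04 and 10.13, a difference of 0.55 ± 0.038, or 1.46-fold (adjusted p = 1.7e-16). At P80 it was again lower in every Iso sample (9.97 to 10.14, against 10.25 to 10.44), with a difference of -0.30 ± 0.038 (adjusted p = 9.2e-09). A dimmer probe set of the gene, with a mean of 7.49, fell by 0.78 at P40 and rose by 0.46 at P60, and differed by -0.03 at P30 and -0.01 at P80 without passing the test. Of the other markers of cortical excitatory neurons that were tested, Neurod6 differed by -0.21 at P30, -0.09 at P40, -0.03 at P60 and 0.16 at P80, and Etv1 by -0.09, 0.15, -0.20 and -0.02. At P60 Neurod6 did not pass the test and Etv1 was lower in Iso. Syt1, a vesicle protein of neurons at large, had the course of Slc17a7, with differences of -0.31, -0.68, 0.79 and -0.19, all called. It is 1 of 7 neuronal markers, which as a list did not share this course. Of the 7, 1 was higher and 2 lower in Iso at P30 (7.64% and 12.2% of all probe sets), and 0 and 1 at P40 (13.7% and 14.5%). At P60 2 were higher and 0 lower (23.7% and 29.2%), and at P80 3 and 2 (23.4% and 24.1%). The summed signal of 5 excitatory markers includes Slc17a7. The sum was lower in Iso at P30, P40 and P80 and higher at P60 with no overlap. At P60 it ran from 11.39 to 11.48 in Iso and from 11.15 to 11.25 in Soc. Slc17a7 had the highest signal of the 5, with a mean of 10.3 against 9.4 for Etv1, so the sum is no measure apart from it. The part of these markers in the course of Slc17a7 was not tested.

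Slc32a1, the vesicular carrier of GABA and glycine, went the same way with overlapping groups. It fell by 0.18 ± 0.065 at P30, fell by 0.24 ± 0.065 at P40, rose by 0.16 ± 0.062 at P60, and differed by -0.14 at P80 (limma, adjusted p = 0.0462, 0.00431, 0.0302 and 0.0504). The P40 values were 7.66, 7.69, 7.73, 7.93 and 7.97 in Iso, of which the upper pair reached into the Soc range of 7.92 to 8.26. The P30 call ended without any of 7 samples (Soc 1, 2 or 6, Iso 1, 3, 5 or 6), with values from -0.15 to -0.19, and the P60 call without any of 5 (Soc 3, 5 or 6, Iso 2 or 3), with values from 0.11 to 0.15. With the Gapdh ratio in the model neither call of Slc32a1 held (adjusted p = 0.278 and 0.139), whereas all 4 calls of Slc17a7 held. The P60 call of Slc32a1 also ended with median centring, at a difference of 0.10.

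Slc6a17, which fills vesicles with neutral amino acids, fell by 0.17 ± 0.049 in Iso at P30 (limma, adjusted p = 0.01) and was called at no other age on its brightest probe set. Its Iso samples at P30 read 11.17, 11.21, 11.30, 11.30 and 11.36, all below the Soc range of 11.41 to 11.45. The call ended with quantile normalization (-0.01) and with the Gapdh ratio (-0.04). A dimmer probe set of Slc6a17, with a mean of 8.83, was called at all 4 ages, at -0.18, 0.21, 0.44 and -0.45. Slc17a6, the other vesicular glutamate carrier, was called at no age, with differences from -0.11 to 0.11. Slc18b1, a vesicular polyamine carrier, was higher in Iso at P30 by 0.22 ± 0.072 (adjusted p = 0.027), a call that ended without Soc sample 4 or 6 or Iso sample 2 or 3 (0.18 to 0.20), with median centring (0.17) and with the Gapdh ratio (0.17).

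Among the 6 carriers that take up neurotransmitters, creatine and osmolytes, the brain-specific proline carrier Slc6a7 had the largest difference. At P60 its Iso samples (6.89, 6.92 and 7.10 for the lowest, median and highest) all lay above the Soc samples (6.12, 6.30 and 6.45), a rise of 0.67 ± 0.078 or 1.59-fold (limma, adjusted p = 7.48e-10). It fell by 0.24 at P40 and fell by 0.39 at P80 (adjusted p = 0.0208 and 5.61e-05), with groups that met or overlapped. The P40 call ended with median centring (-0.21), with the Gapdh ratio (-0.23) and without Soc sample 3 or Iso sample 2 or 5 (-0.20 to -0.21). Slc6a7 was thus called higher in Iso at P60 alone, and Soc P60 was its lowest group at 6.28 ± 0.11 (SD, n = 6).

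The neuronal glutamate carrier Slc1a1 fell by 0.15 ± 0.043 at P30 and fell by 0.26 ± 0.041 at P80 (limma, adjusted p = 0.01 and 1.08e-06). At P80 its Iso samples ran from 7.99 to 8.27 and its Soc samples from 8.37 to 8.43, with no overlap. Its dimmer probe set was called at P40 (-0.39), P60 (0.30) and P80 (-0.32), and not at P30 (-0.08). Slc6a6, the taurine carrier, rose at P40 by 0.31 ± 0.063 and fell by 0.27 ± 0.060 at P60 (adjusted p = 0.000201 and 0.000194). The glycine carrier Slc6a9 rose at P60 by 0.23 ± 0.075 (adjusted p = 0.00994), where its dimmer probe set rose by 1.0, and with the Gapdh ratio its adjusted p was 0.0926. The creatine carrier Slc6a8 fell by 0.15 at P60, but its dimmer probe set rose by 0.34, so its direction rests on the probe set. The call of Slc6a8 also ended without any of 5 samples (Soc 3 or 5, Iso 2, 4 or 6), at -0.12 to -0.15, and with quantile normalization (-0.12) or the Gapdh ratio (-0.14).

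Of the 19 amino acid and peptide carriers, 1 was higher and 2 lower in Iso at P30, 1 higher and 6 lower at P40, 3 higher and 9 lower at P60, and 7 higher and 5 lower at P80. Of all probe sets, 7.64% were higher and 12.2% lower at P30, and 13.7% and 14.5% at P40. At P60 the shares were 23.7% and 29.2%, and at P80 23.4% and 24.1%. The class median moved from -0.09 at P60 to 0.07 at P80. Both heavy chains were called lower in Iso at P30 and P60 and higher at P80. Slc3a1, the heavy chain of cystine and dibasic amino acid carriers, had differences of -0.19 at P30, -0.30 at P40, -0.50 ± 0.044 at P60 and 0.43 ± 0.044 at P80 (limma, adjusted p = 0.00195, 1.24e-06, 2.87e-13 and 4.1e-11). At P60 its Soc samples ran from 9.40 to 9.50 and its Iso samples from 8.81 to 9.07. At P80 the Soc samples were at 8.14, 8.19 and 8.24 and the Iso samples at 8.56, 8.60 and 8.75, so the groups did not overlap at either age. The Soc mean of Slc3a1 ran from 9.43 ± 0.04 at P60 to 8.19 ± 0.04 at P80 (SD, n = 6 each), and its group means spanned 1.23, the widest span of any of the 144 carriers.

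Slc3a2, the heavy chain that partners most light chains of the brain, differed by -0.15 at P30, -0.07 at P40 and -0.08 at P60, of which the first and the last passed the test, the first not with the Gapdh ratio (-0.09). At P80 its Soc samples dropped to 9.13, 9.17 and 9.23 while the Iso samples read 9.50, 9.58 and 9.66. The difference of 0.41 ± 0.031, or 1.33-fold (limma, adjusted p = 5.85e-15), came with no overlap. Its fall at P60 of 0.08 passed the test by a small margin, ended without Soc sample 6 (-0.07), and read 0.09 with the Gapdh ratio in the model.

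The light chains did not follow a single course. Slc7a5 carries large neutral amino acids such as leucine and tryptophan. In Iso it rose by 0.38 ± 0.096 at P30 and 0.75 ± 0.091 (1.68-fold) at P60 and fell by 0.37 ± 0.091 at P80 (limma, adjusted p = 0.00296, 2.81e-09 and 0.000874). The P60 samples were at 6.17, 6.40 and 6.48 in Iso and 5.31, 5.61 and 5.80 in Soc. They did not overlap, nor did the P80 samples, from 5.53 to 5.97 in Iso and 6.04 to 6.36 in Soc, and the P80 call ended with the Gapdh ratio (-0.27, adjusted p = 0.102). Slc7a11, which exchanges cystine for glutamate, fell by 0.19 ± 0.047 at P60 and rose by 0.37 ± 0.047 at P80 (adjusted p = 0.000769 and 7.23e-09), with no overlap at either age. Slc7a8 was called at no age, although 1 Iso sample at P30 (4.75) and 1 at P40 (4.76) lay far under the others of their groups.

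Slc38a2, a sodium-coupled glutamine carrier of neurons, was lower in Iso at 3 ages, with differences of -0.20 at P40, -0.45 ± 0.058 at P60 and -0.21 at P80 (limma, adjusted p = 0.0108, 8.47e-09 and 0.00288), and at each of them the groups did not overlap. Its P40 call ended with the Gapdh ratio (-0.08). Slc38a1, a related carrier, fell by 0.27 ± 0.041 at P60 and rose by 0.15 ± 0.041 at P80, with its dimmer probe set at 0.12 and 0.19 and not called, and the P80 call of Slc38a1 ended with the Gapdh ratio (0.10). Slc38a3, the glutamine carrier of astrocytes, fell by 0.39 ± 0.128 at P40 (adjusted p = 0.0174), a call that ended without Soc sample 6 or Iso sample 5 (-0.34 each) and with the Gapdh ratio (-0.25). Slc1a4, a carrier of serine and alanine, rose by 0.42 ± 0.111 at P80 (adjusted p = 0.00167). Slc7a1, for arginine and lysine, differed by -0.18 at P60 and 0.33 at P80, both called, and its dimmer probe set by 0.10 and -0.07, neither called, and its P80 call ended with the Gapdh ratio (0.19). Slc15a2, a peptide carrier, fell by 0.22 at P60 and rose by 0.24 at P80. Slc7a14 fell by 0.66 ± 0.129 at P40 (adjusted p = 0.000104) with Iso samples at 5.32, 5.52, 5.63, 5.92 and 6.18 below the Soc range of 6.24 to 6.60.

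**Figure D3:**
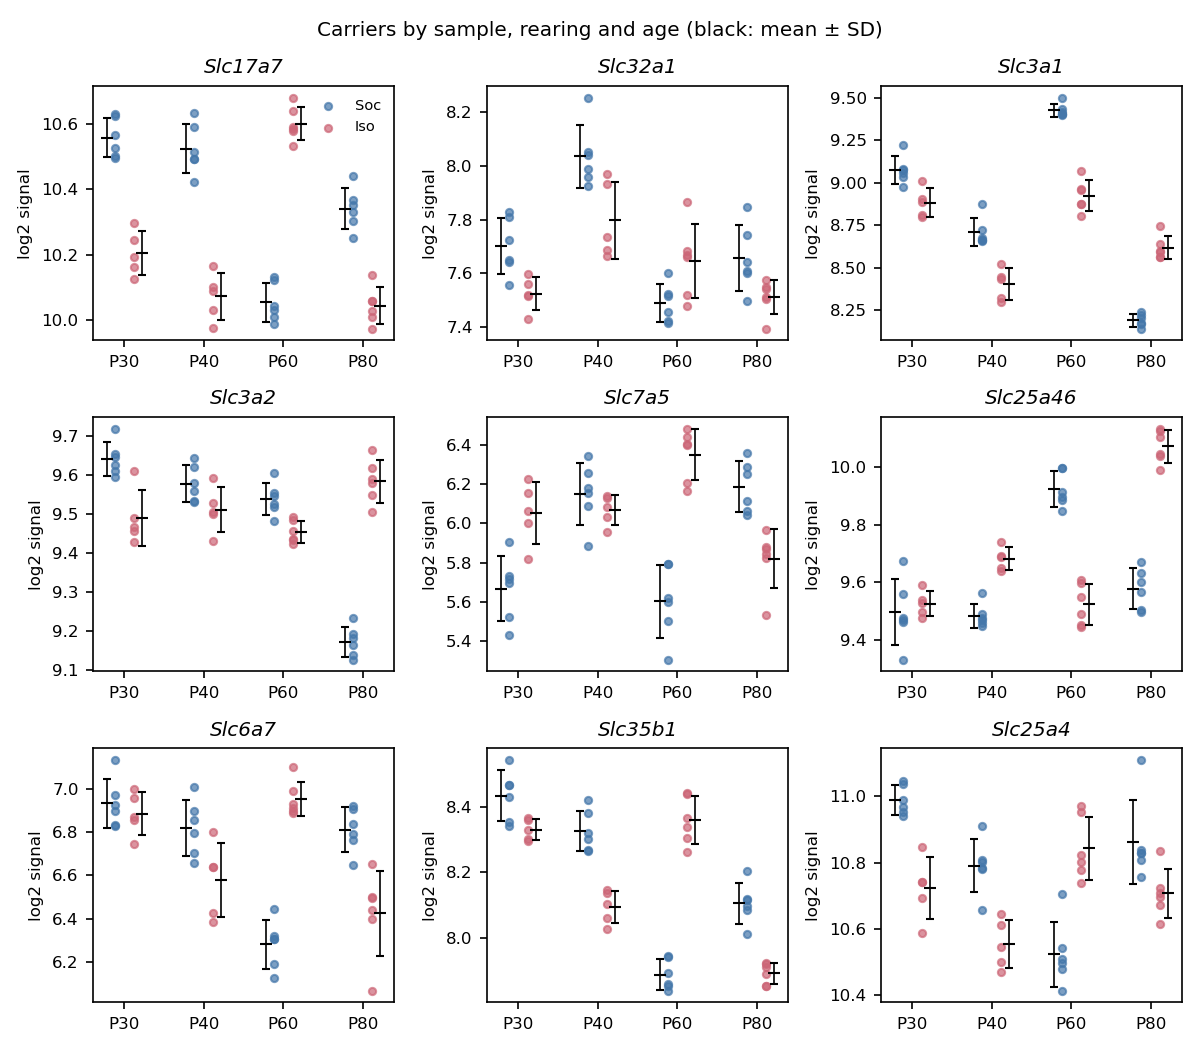
Log2 signal of 9 carriers in every sample by age (points; blue Soc, red Iso; black bars are mean ± SD; Iso P30 and Iso P40 have n = 5, the others n = 6). Slc17a7, Slc6a7 and Slc35b1 were above Soc in every Iso sample at P60, and Slc3a1, Slc3a2 and Slc25a46 at P80.

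Carriers of chloride, bicarbonate and protons were called 2, 2, 5 and 1 times of 9 at the 4 ages. The shares of all probe sets called were 19.9%, 28.2%, 52.9% and 47.5%. The potassium-chloride exporter Slc12a5 differed from Soc at P30 alone, by -0.18 ± 0.054 (limma, adjusted p = 0.0147). Its Iso samples read 10.57, 10.69, 10.71, 10.79 and 10.80, below the Soc range of 10.83 to 10.98, and the call ended with quantile normalization (-0.07), with the Gapdh ratio (-0.05) and without Iso sample 3 (-0.14). The importer Slc12a2 fell at P60 by 0.35 ± 0.040 (adjusted p = 4.32e-10), with Iso samples from 8.68 to 8.83 and Soc samples from 9.03 to 9.18. Its rise at P40 of 0.13 ended without any of 5 samples (Soc 1 or 2, Iso 1, 3 or 4), at 0.096 to 0.115. Slc4a10, a sodium bicarbonate carrier of neurons, fell by 0.26 ± 0.051 at P60 and rose by 0.30 ± 0.051 at P80 (adjusted p = 2.92e-05 and 3.22e-06). The sodium-proton exchanger Slc9a8 rose by 0.61 ± 0.121 at P60 (adjusted p = 3.56e-05) with no overlap, Iso from 6.49 to 7.04 and Soc from 5.93 to 6.16, and with the Gapdh ratio its value was 0.72 with an adjusted p of 0.059.

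Of the 6 calcium exchangers, 5 were called at P60, an age at which 52.9% of all probe sets were called. The sodium-calcium exchanger Slc8a1 fell by 0.50 ± 0.067 (limma, adjusted p = 1.76e-08), from Soc samples of 7.17 to 7.40 to Iso samples of 6.59 to 7.03. Its relative Slc8a2 rose by 0.48 ± 0.126, and the potassium-dependent exchanger Slc24a4 rose by 0.42 ± 0.093 (adjusted p = 0.00141 and 0.000216). Slc24a3 rose at P40 by 0.40 ± 0.073 (adjusted p = 4.79e-05), Iso from 9.20 to 9.57 and Soc from 8.68 to 9.13. Members of the class thus went opposite ways at 1 age. The Slc24a4 call read an adjusted p of 0.0562 with the Gapdh ratio.

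Among the 19 metal carriers, 4 were called at P30, 4 at P40, 10 at P60 and 14 at P80. The shares of all probe sets called were 19.9%, 28.2%, 52.9% and 47.5%. Slc39a7, which releases zinc from the endoplasmic reticulum, fell by 0.40 ± 0.082 at P30, rose by 0.37 ± 0.078 at P60 and fell by 0.58 ± 0.078 at P80 (limma, adjusted p = 0.000329, 8.56e-05 and 4.08e-08). At P80 the Iso samples were at 6.46, 6.74 and 6.84 and the Soc samples at 7.14, 7.24 and 7.42, with no overlap. The difference of Slc39a7 was the largest in size among the carriers called at P80, and its P60 call ended with the Gapdh ratio (0.40, adjusted p = 0.11). The manganese exporter Slc30a10 fell by 0.65 ± 0.127 at P60 (adjusted p = 3.18e-05), with Iso samples spread from 5.31 to 6.34 under Soc samples of 6.52 to 6.74. Slc11a2, an importer of iron and other divalent metals, rose by 0.26 at P30, fell by 0.32 ± 0.080 at P60 and rose by 0.38 ± 0.080 at P80. The P30 call of Slc11a2 ended with median centring (0.22), with the Gapdh ratio (0.28, adjusted p = 0.0613) and without Iso sample 2 (0.20), and the P60 call with the Gapdh ratio (-0.27, adjusted p = 0.323). The heme carrier Slc48a1 ran the other way, with -0.21 at P40, 0.27 at P60 and -0.27 at P80, all called, the P60 one not with the Gapdh ratio (0.16). Slc30a3, which fills glutamatergic vesicles with zinc, was among the steadiest carriers. Its group means spanned 0.15 and it was called at P80 alone, higher by 0.14 ± 0.039 (adjusted p = 0.00357).

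The 28 mitochondrial carriers were called 6, 5, 15 and 15 times at the 4 ages (19.9%, 28.2%, 52.9% and 47.5% of all probe sets). At P30, where 7.64% of all probe sets were higher and 12.2% lower, all 6 calls were lower. These were the ADP/ATP exchangers Slc25a4 (-0.27 ± 0.052) and Slc25a5 (-0.18 ± 0.046), the phosphate carrier Slc25a3 (-0.30 ± 0.054), the glutamate carrier Slc25a22 (-0.15 ± 0.037), the oxoglutarate carrier Slc25a11 (-0.13 ± 0.044) and the ATP-magnesium carrier Slc25a25 (-0.32 ± 0.090), with limma's adjusted p from 4.61e-05 to 0.0257. The P30 calls of Slc25a4, Slc25a5 and Slc25a11 ended with the Gapdh ratio (-0.10, -0.05 and -0.10), those of Slc25a5, Slc25a11 and Slc25a22 with quantile normalization (-0.07, -0.09 and -0.07), and that of Slc25a25 without Iso sample 1 (-0.25). That of Slc25a11 also ended without Soc sample 1 or 2 or Iso sample 1 or 6 (-0.11 to -0.12).

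Slc25a4 followed the course of Slc17a7, with differences of -0.27 at P30, -0.24 at P40, 0.32 ± 0.050 at P60 and -0.15 at P80 (limma, adjusted p = 0.000197, 0.000553, 6.29e-07 and 0.00954). At P60 the Iso samples were at 10.74, 10.81 and 10.97 and the Soc samples at 10.41, 10.50 and 10.70, without overlap. The P80 call ended without Soc sample 6 (-0.10), the highest Soc sample at 11.11, and with median centring (-0.12), and the value read 0.08 with the Gapdh ratio. Slc25a5 differed by -0.18, -0.16, 0.14 and 0.15 at the 4 ages, all called. Median centring ended its calls at P40 (-0.12) and P60 (0.09), and quantile normalization that at P80 (0.05).

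Slc25a46, a protein of the outer membrane with a part in mitochondrial fission and fusion, went the opposite way from Slc17a7 at P40, P60 and P80. It differed by 0.03 at P30, rose by 0.20 ± 0.042 at P40, fell by 0.40 ± 0.040 at P60 and rose by 0.49 ± 0.040 at P80 (limma, adjusted p = 0.655, 0.000288, 1.45e-11 and 3.61e-14). The P80 samples were at 9.99, 10.08 and 10.13 in Iso and 9.50, 9.58 and 9.67 in Soc, and the groups did not overlap at any of the 3 later ages. A dimmer probe set of the gene, with a mean of 6.65, was lower at P30 (-0.40), moved the other way at P40 (-0.31) and P60 (0.43), all 3 called, and differed by 0.07 at P80, so its direction belongs to the brighter probe set. The aspartate-glutamate carrier Slc25a12, part of the shuttle that brings reducing equivalents into mitochondria, fell by 0.21 ± 0.047 at P60 and rose by 0.40 ± 0.047 at P80 (adjusted p = 0.000271 and 1.34e-09), and its P60 call ended with the Gapdh ratio (-0.13). Slc25a22 rose by 0.35 ± 0.036 at P60 (adjusted p = 2.58e-11), with Iso samples from 9.43 to 9.61 above Soc samples from 9.09 to 9.22. The iron carrier Slc25a28 fell by 0.41 ± 0.079 at P60 (-0.21 and not called with the Gapdh ratio) and rose by 0.23 at P80, a call that ended without Soc sample 5 (0.19).

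The glucose carrier Slc2a3 of neurons was called at no age, with differences from -0.09 to 0.07, and its group means spanned 0.14, the narrowest span of the 144 carriers. The glucose carrier Slc2a1, of the vessel wall and of astrocytes, fell by 0.21 ± 0.044 at P40 and rose by 0.16 ± 0.042 at P60 (limma, adjusted p = 0.000234 and 0.00147). At P40 its Iso samples ran from 8.08 to 8.23 and its Soc samples from 8.28 to 8.45. The P60 call of Slc2a1 ended with the Gapdh ratio (0.20, adjusted p = 0.141). The sodium-inositol carrier Slc5a3 fell by 0.53 ± 0.122 at P80 (adjusted p = 0.000328), with a signal close to the threshold, and differed by -0.29 at P60, a call that ended without any of 7 samples (Soc 1, 3, 5 or 6, Iso 1, 4 or 5), at -0.22 to -0.29, with no filter, and with the Gapdh ratio (-0.58, adjusted p = 0.136). The proton-inositol carrier Slc2a13 rose by 0.21 at P40, fell by 0.11 at P60 and rose by 0.13 at P80. The dimmer probe set of Slc2a13 went the opposite way at P60 (0.42) and P80 (-0.35). The P60 call of Slc2a13 ended without Soc sample 5 or Iso sample 4 or 5 (-0.09 to -0.10), with quantile normalization (-0.07) and with the Gapdh ratio (-0.04), and the P80 call with quantile normalization (0.10).

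The lactate and ketone carrier Slc16a1 fell by 0.20 ± 0.044 at P60 and rose by 0.14 ± 0.044 at P80 (limma, adjusted p = 0.000189 and 0.0061), the second of which read 0.03 with the Gapdh ratio. Its neuronal relative Slc16a7 rose at P40 by 0.31 ± 0.104 (adjusted p = 0.0197) and not without Soc sample 4 or Iso sample 2 (0.26 each). The citrate carrier Slc13a5 fell by 0.37 ± 0.067 at P60 and rose by 0.29 ± 0.067 at P80 (adjusted p = 8.42e-06 and 0.000399), the second with an adjusted p of 0.0669 under the Gapdh ratio. Slc13a4, a sulfate carrier known from the meninges and choroid plexus, rose at P60 by 0.43 ± 0.133 (adjusted p = 0.00587), as did Slc22a8, an organic anion carrier of brain barriers, by 0.28 ± 0.108 (adjusted p = 0.026). At P60 the summed signal of 7 markers of meninges and fibroblasts ran from 10.14 to 10.27 in Soc and from 10.50 to 10.82 in Iso on the log2 scale. Ptgds, the brightest of the 7, had means of 9.58 in Soc and 10.22 in Iso. Of the 5 markers tested, 2 were higher in Iso (23.7% of all probe sets were) and 3 were not called. The choroid plexus marker Ttr was at 5.92 in Soc and 5.87 in Iso at P60 and was not called. At P30, where Ttr differed by -3.11, Slc13a4 (-0.09) and Slc22a8 (0.25) were not called. The part of these markers in the rises was not tested, and the Slc13a4 call ended with the Gapdh ratio (0.15). The call of Slc22a8 ended without any of 6 samples (Soc 1, 3 or 4, Iso 3, 5 or 6), at 0.24 to 0.26, with quantile normalization or median centring (0.23 each) and with the Gapdh ratio (0.43, adjusted p = 0.218). The phosphate carrier Slc20a1 differed by -0.17 at P30, -0.12 at P60 and 0.15 at P80, all called, and the P60 call ended with the Gapdh ratio (-0.03).

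Of the 20 carriers of the Golgi and endoplasmic reticulum, 1 was called at P30, 5 at P40, 6 at P60 and 5 at P80. The shares of all probe sets called were 19.9%, 28.2%, 52.9% and 47.5%. Slc35b1, which brings ATP into the endoplasmic reticulum, fell by 0.23 ± 0.039 at P40, rose by 0.47 ± 0.037 at P60 and fell by 0.21 ± 0.037 at P80 (limma, adjusted p = 1.05e-05, 1.33e-14 and 5.53e-06). Its P60 samples were at 8.26, 8.35 and 8.44 in Iso and 7.84, 7.88 and 7.95 in Soc, and its groups did not overlap at these 3 ages. A dimmer probe set read -0.12 at P60 and was not called. Slc35a1, which carries CMP-sialic acid into the Golgi, fell by 0.32 ± 0.055 at P60 and rose by 0.27 ± 0.055 at P80 (adjusted p = 4.33e-06 and 5.77e-05), the first with an adjusted p of 0.0887 under the Gapdh ratio. Slc35a4 fell by 0.57 ± 0.134 at P40 (adjusted p = 0.00115). The acetyl-CoA carrier Slc33a1 rose by 0.32 at P40 and fell by 0.38 at P60, while its dimmer probe set read -0.19 and 0.51.

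The 14 carriers of nucleosides, vitamins, choline, organic ions and other solutes included Slc5a6, for biotin and pantothenate, which rose by 0.30 ± 0.079 at P40, fell by 0.18 at P60 and rose by 0.38 ± 0.075 at P80 (limma, adjusted p = 0.00299, 0.0365 and 4.04e-05). Its P60 call ended without any of 8 samples (Soc 1, 2, 3, 5 or 6, Iso 2, 4 or 6), at -0.14 to -0.18, with quantile normalization (-0.17) and with the Gapdh ratio (-0.43, adjusted p = 0.0644). The vitamin C carrier Slc23a2 fell by 0.21 at P30, rose by 0.17 at P60 and fell by 0.19 at P80. Its P30 call ended without Soc sample 4 or 5 (-0.18 and -0.19) or Iso sample 6 (-0.13) and with the Gapdh ratio (-0.22, adjusted p = 0.0698). Its later calls ended with the Gapdh ratio too (0.15 at P60 and -0.21 at P80), that at P60 also with median centring (0.12). Slc22a23 rose by 0.21 at P40, fell by 0.40 ± 0.053 at P60 and rose by 0.32 ± 0.053 at P80, with no overlap at P60 and P80, and its P40 call had an adjusted p of 0.0528 in a fit of the compared groups alone. The urea carrier Slc14a2 rose at P30 by 0.41 ± 0.126 (adjusted p = 0.0156), the largest rise at that age, with Iso samples at 6.04, 6.08, 6.12, 6.34 and 6.62 within reach of a Soc range of 5.47 to 6.17. The call of Slc14a2 ended without Soc sample 5 (0.34) or Iso sample 1 (0.32) and with the Gapdh ratio (0.42, adjusted p = 0.0632).

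A carrier called at both P60 and P80 mostly changed direction. Of 43 carriers called at both ages, 38 were called in opposite directions (88.4%, against 82.8% of 3541 probe sets). At P40 and P60 it was 22 of 26 (84.6%, against 91.4% of 2454), and at P30 and P60 10 of 14 (71.4%, against 65.2% of 1497). At P40 and P80 it was 3 of 16 (18.8%, against 24.5% of 1865), at P30 and P80 8 of 15 (53.3%, against 28.2% of 1384), and at P30 and P40 0 of 5 (against 24.3% of 945). The change of direction around P60 was thus present in the whole table. Among carriers called at any age, the most common courses were lower at P60 and higher at P80 with no call before, in 14 carriers, and higher at P60 alone, also in 14. A further 6 rose at P40, fell at P60 and rose at P80. The Gapdh ratio was higher in Iso than in Soc at P40 and lower at the other ages.

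**Figure D4:**
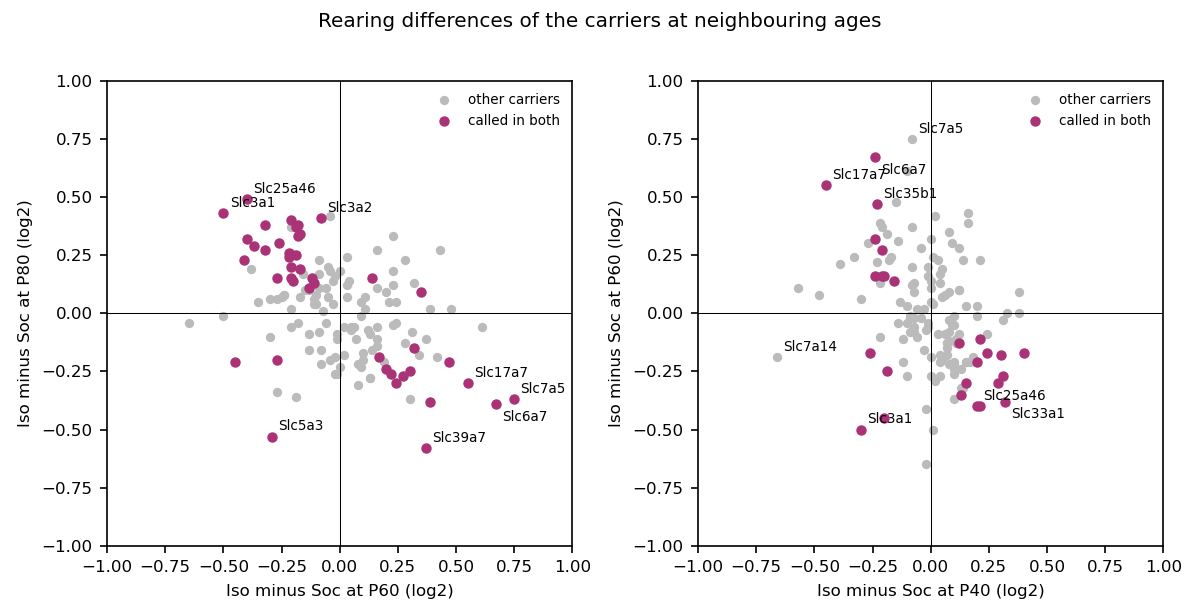
Iso minus Soc difference (log2) of the 144 carriers, P80 against P60 on the left and P60 against P40 on the right, with purple points for carriers called at both ages. Of the purple points, 38 of 43 on the left and 22 of 26 on the right lie in the quadrants of opposite sign.

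Averaged over the 4 ages with equal weight, 31 carriers were called (21.5%, against 28.5% of all probe sets), 13 higher and 18 lower (12.3% and 16.1%). Over both directions, 13 of the 31 calls held with the Gapdh ratio in the model and 18 did not. The largest falls were of Slc7a14 (-0.24 ± 0.063), Slc5a3 (-0.22 ± 0.063), Slc38a2 (-0.21 ± 0.030), Slc30a10 (-0.21 ± 0.065) and Slc39a7 (-0.20 ± 0.040), and the largest rises of Slc13a4 (0.19 ± 0.068), Slc22a8 (0.18 ± 0.056), Slc7a5 (0.17 ± 0.047), Slc39a3 (0.17 ± 0.052) and Slc4a11 (0.15 ± 0.049), with limma's adjusted p from 4.03e-07 to 0.028. With the Gapdh ratio in the model 6 of these 10 did not pass: Slc13a4, Slc22a8, Slc30a10, Slc39a3, Slc39a7 and Slc4a11. Without Iso P30 sample 1, Slc13a4 had an adjusted p of 0.0531. Slc38a2, which supplies glutamine, kept 1 direction at the 3 ages at which it was called.

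The rearing difference depended on age in 98 carriers (68.1%, against 71.9% of all probe sets; limma's F test of the interaction). The smallest p-values were those of Slc17a7 (F = 146.52, adjusted p = 5.21e-21), Slc25a46 (87.52, 4.45e-17), Slc3a1 (83.28, 1.04e-16), Slc35b1 (78.29, 2.84e-16), Slc3a2 (67.54, 3.22e-15), Slc6a7 (36.23, 4.92e-11), Slc22a23 (34.52, 9.9e-11) and Slc25a22 (30.86, 4.66e-10). The dimmer probe set of Slc35b1 gave an F of 0.94 and an adjusted p of 0.464.

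From P30 to P80, more carriers fell than rose in the socially reared rats. In Soc, 67 carriers were called (46.5%, against 49.6% of all probe sets), 25 higher and 42 lower at P80 (26.1% and 23.4% of all probe sets). In Iso, 63 were called (43.8%, against 48.0%), 29 higher and 34 lower (25.6% and 22.4%), a split that read 45 higher and 20 lower after median centring. The median carrier moved by -0.076 in Soc and -0.017 in Iso, where all probe sets had medians of 0.014 and 0.006. The Gapdh ratio ran from 1.445 to 1.566 in Soc P30 and from 1.771 to 2.035 in Soc P80. In Iso it ran from 1.264 to 1.437 at P30 and from 1.454 to 1.723 at P80. Age and that shift cannot be told apart by group. With the ratio in the model 43 of the 67 Soc calls and 51 of the 63 Iso calls held. In Soc the largest falls were of Slc3a1 (-0.88 ± 0.044) and Slc13a4 (-0.70 ± 0.133), and the largest rises of Slc7a14 (0.76 ± 0.123) and Slc38a2 (0.68 ± 0.058). In Iso Slc14a2 (-0.80 ± 0.126) and Slc16a7 (-0.56 ± 0.104) fell most, and Slc25a46 (0.55 ± 0.042) and Slc13a5 (0.51 ± 0.070) rose most, the dimmer probe set of Slc25a46 falling by 0.24. Slc38a2 rose in both rearings, by 0.45 ± 0.061 in Iso, and Slc13a4 fell in both, at -0.35 ± 0.140 in Iso, a call that ended with quantile normalization (-0.25), median centring (-0.26), the Gapdh ratio (-0.24) and without any of 5 Iso samples (P80 3 or 5, P30 1, 5 or 6), at -0.27 to -0.35. From P30 to P80 the median summed signal of the choroid plexus markers moved from 9.88 to 7.22 in Soc and from 7.70 to 7.40 in Iso, and that of the meninges and fibroblast markers from 10.83 to 10.33 and from 10.77 to 10.45. Ttr was the only choroid plexus marker tested. Of 5 meninges and fibroblast markers tested, 4 were lower at P80 in Soc and 3 in Iso (23.4% and 22.4% of all probe sets). The part of these markers in the fall of Slc13a4 was not tested.

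Of the 28 mitochondrial carriers, 13 were lower, 5 higher and 10 not called at P80 against P30 in Soc (23.4% of all probe sets were lower and 26.1% higher), with a class median of -0.108. The lower ones included the citrate carrier Slc25a1 (-0.45 ± 0.072), Slc25a5 (-0.34 ± 0.044) and Slc25a22 (-0.31 ± 0.036). In Iso 5 were lower and 7 higher (22.4% and 25.6% of all probe sets). The change from P30 to P80 itself differed between the rearings in 39 carriers (27.1%, against 29.8% of all probe sets), with a more positive change in Iso for 29 and a more negative one for 10 (16.1% and 13.8% of all probe sets), or for 41 and 3 after median centring. For the mitochondrial class this was 7 and 0. With the Gapdh ratio in the model 36 of the 39 calls held. The smallest p-values were of Slc3a2 (0.56 ± 0.045), Slc3a1 (0.62 ± 0.063), Slc25a46 (0.46 ± 0.058), Slc20a1 (0.32 ± 0.046), Slc7a11 (0.42 ± 0.068), Slc7a5 (-0.75 ± 0.132), Slc35a1 (0.42 ± 0.079) and Slc25a12 (0.35 ± 0.068), with limma's adjusted p from 1.02e-13 to 9.53e-05. From P30 to P80 Slc3a2 fell by 0.47 ± 0.031 in Soc and rose in Iso by 0.09 ± 0.033. The Iso call ended with quantile normalization (0.01), the Gapdh ratio (0.02) and without Iso P80 sample 5 or Iso P30 sample 3 (0.08 each). Slc7a5 rose in Soc by 0.52 ± 0.091 and fell by 0.23 ± 0.096 in Iso, where the call ended with quantile normalization (-0.11), median centring (-0.14), no filter, the replicate number as a block (-0.22) and without any of 5 Iso samples (P80 1 or 4, P30 1, 2 or 3), at -0.18 to -0.23.

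**Figure D5:**
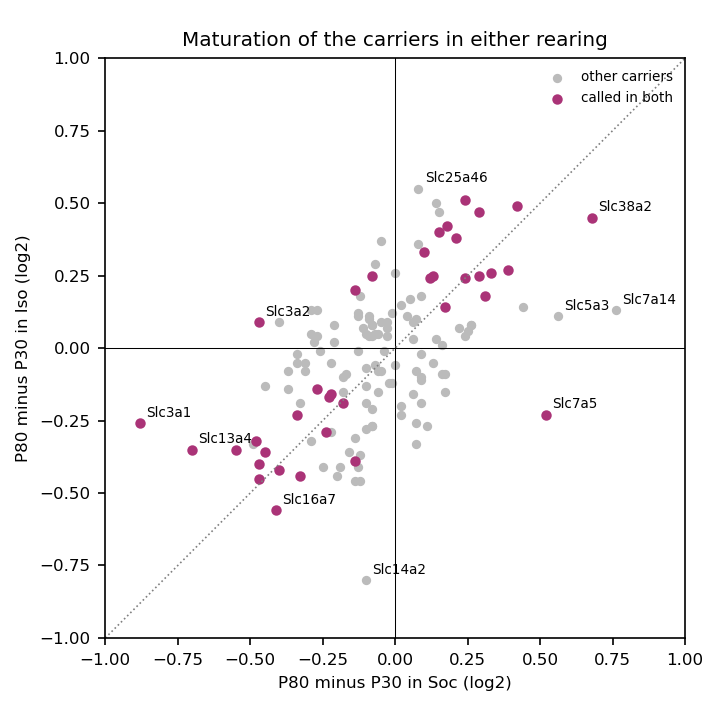
Change from P30 to P80 (log2) of the 144 carriers in Soc (horizontal) and Iso (vertical), with purple points for carriers called in both rearings and a dotted line of equal change. Slc3a2 and Slc7a5 lie in quadrants of opposite sign, and Slc3a1 fell in both rearings, at -0.88 in Soc and -0.26 in Iso.

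More than 1 probe set at or above the threshold was present for 22 of the carriers, with 23 further probe sets. At P60 the further probe set and the brightest were both called in the same direction in 3 cases and in opposite directions in 6, 1 alone was called in 11 and neither in 3. The opposite cases were Slc25a36, Slc25a46, Slc2a13, Slc30a9, Slc33a1 and Slc6a8, and in each the dimmer probe set was the one that was higher in Iso, by 0.30 to 0.83. Over the probe sets of second highest mean, 14 were called higher and 2 lower at P60, and for P80 against P30 in Iso 0 higher and 12 lower. Slc30a9 showed the widest gap, with -0.30 on its brightest probe set and 0.83 on the other at P60. With the Gapdh ratio the brightest probe sets of Slc30a9, Slc25a36 and Slc2a13 were not called there. The Gapdh ratio at P60 ran from 1.92 to 2.33 in Soc and from 1.30 to 1.40 in Iso, and its part in these gaps was not tested.

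Genes that work beside the carriers were read from lists of enzymes and pumps. The counts stand beside the shares of all probe sets. These were 7.64% higher and 12.2% lower in Iso at P30, and 23.7% higher and 29.2% lower at P60. Of 7 enzymes of glucose and lactate, 6 were lower in Iso at P30 and none higher, and at P60 3 were higher and 1 lower. Of 7 ATPases that build the gradients carriers run on, 5 were lower and none higher at P30, among them the sodium pump subunits Atp1b1 (-0.34) and Atp1b2 (-0.28). At P60 4 of the 7 ATPases were higher and 1 lower. Got1, the cytosolic aspartate aminotransferase that works with Slc25a12, differed by -0.56, -0.21, 0.74 and -0.36 at the 4 ages. Bsg, which brings Slc16a1 to the surface, differed by -0.15, -0.27, 0.41 and -0.10, and all 8 of these values of Got1 and Bsg were called. Slc25a12 went the other way at P60 (-0.21) and P80 (0.40), as did Slc16a1 (-0.20 and 0.14). Got1 is 1 of 7 enzymes of glutamate and GABA tested, of which 0 were higher and 2 lower at P30, and 2 and 2 at P60. Bsg is 1 of 8 tested proteins and kinases that assist carriers, of which 1 was higher and 3 lower at P30, and 3 and 2 at P60. Among cell-type markers at P30, 5 of 8 of astrocytes were lower in Iso and none higher, and of neurons 1 of 7 was higher and 2 lower. At P60 none of 8 astrocyte markers was higher and 3 were lower, and 2 of 7 neuronal markers were higher. The higher ones were Syt1 (0.79) and Tubb3 (0.70), and the summed neuronal markers ran from 12.94 to 13.18 in Soc P60 and from 12.99 to 13.15 in Iso P60 on the log2 scale. All 6 tested markers of oligodendrocytes were lower in Iso at P40 (14.5% of all probe sets were), with a median of -0.24. At P80 4 of 8 astrocyte markers were higher and 1 lower (23.4% and 24.1% of all probe sets). The part of these markers in the carrier differences was not tested.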

How the data were processed

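The deposited values are log2 signals, one per probe set and array, and MAS5 is the tool that the submitters' processing notes name, while its version and scaling target are not given in the sources used here. Per the labels' protocols, 7 ug of Trizol-extracted RNA was labelled as biotinylated cRNA and hybridised to Affymetrix arrays. A deposited list gives, as a count of probe sets for each of 14 criteria, how the authors went from 31099 to 20304 probe sets, keeping those detected as present or marginal on 25% or more of a group's arrays. Of these, 55 were controls, 14607 had 1 gene symbol in the platform annotation, 326 several and 5316 none, and genes were named only from those with 1. The 12233 probe sets whose mean over all arrays reached 5.7 were fitted with limma 3.58.1 (R 4.3.3): 8 group means, 46 samples, an intensity trend in the variance, 38 residual degrees of freedom, and Benjamini-Hochberg adjustment over all 12233 at a threshold of 0.05. A gene was represented by its probe set of highest mean. Arrays 3 and 4 of Iso P30, at 0.488 of their group's median distance where every other pair was at 0.86 or more, were counted as 1 sample by their mean. No depth can be given for arrays: the number of samples limits the precision. Genes named in the text were, among called carriers, the 8 largest rises and falls at each age and from P30 to P80 in each rearing, the 5 largest for the mean over ages, the 8 smallest p for the interaction and for the difference of the changes, the brightest of each class and a list of brain carriers, 85 in all. Slc15a2, Slc25a1, Slc25a11, Slc25a36, Slc48a1, Slc7a1 and Slc7a8 were added after their values were seen. Of the 35 listed brain carriers 33 were members, and the others were not analysed here. Alternatives were quantile normalization, median centring, no filter and a filter at 7, only the groups compared, the Gapdh ratio as a covariate, the replicate number as a block, the probe set of second highest mean, all 47 arrays counted apart, no intensity trend, and leaving out each sample. The fit was tested on simulated data. Tables and plots were made with pandas 2.3.3 and matplotlib 3.10.9. The carriers, marker lists and companion lists were chosen with earlier results of these data known.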

Additional observations from a re-analysis of the deposited data

Results flagged for a closer look

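In 264 groups of the listed brain carriers, 1 sample stood far from the rest of its group in 18; chance does so in about 1 of 20 groups. Soc P80 sample 6 was the highest of its group for Slc6a17 (11.63, next 11.42), Slc12a5 (11.04, next 10.78), Slc24a2 (10.48, next 10.32), Slc25a4 (11.11, next 10.84) and Slc25a5 (10.64, next 10.51). Soc P60 sample 6 was the highest for Slc6a17 (11.39, next 11.21) and Slc38a1 (9.33, next 9.27). Other high samples were Soc P40 sample 2 for Slc6a9 (8.46), Soc P40 sample 5 for Slc30a3 (10.09) and Iso P60 sample 1 for Slc20a1 (9.69). Low samples were Iso P60 sample 3 for Slc1a1 (8.16), Iso P30 sample 2 for Slc4a10 (9.64), Soc P30 sample 6 and Soc P80 sample 5 for Slc25a12 (7.76 each), Iso P60 sample 1 for Slc38a2 (8.45), Iso P80 sample 1 for Slc7a5 (5.53), and Iso P60 and Iso P80 sample 4 for Slc35a1 (7.29 and 7.39).

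The rearing difference varied with age, by limma's F test, for Slc17a7 (F = 146.52), Slc25a46 (87.52), Slc3a1 (83.28), Slc35b1 (78.29), Slc3a2 (67.54), Slc6a7 (36.23), Slc22a23 (34.52) and Slc25a22 (30.86). The change from P30 to P80 was more positive in Iso than in Soc for Slc3a2 (0.56), Slc3a1 (0.62), Slc25a46 (0.46), Slc20a1 (0.32), Slc7a11 (0.42), Slc35a1 (0.42) and Slc25a12 (0.35), and more negative for Slc7a5 (-0.75). The adjusted p-values, from limma, ranged from 5.21e-21 to 4.66e-10 for the F tests and from 1.02e-13 to 9.53e-05 for the changes.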

How the results depend on the processing

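With the Gapdh ratio as a covariate, the carriers called numbered 16 at P30 and 40 at P60 (25 and 74 without it). A filter at a mean of 7 left 40 called for P80 against P30 in Iso. The probe set of second highest mean, available for 22 carriers, gave 4 calls at P30, 9 at P40, 16 at P60, 7 at P80, 4 for the mean over ages, 12 and 14 for P80 against P30 in Iso and Soc, 3 for their difference and 18 for the interaction. Leaving out 1 sample at a time gave 20 to 26 calls at P30, 30 to 37 at P40, 66 to 73 at P60, 58 to 63 at P80, 30 to 37 for the mean, 57 to 64 and 60 to 69 in Iso and Soc, 34 to 40 for their difference and 94 to 103 for the interaction. Same-numbered samples correlated between -0.089 and 0.087 in their deviations, so the numbers were not taken to pair samples; with the replicate number as a block the calls were 26, 36, 74, 64, 31, 63, 65, 37 and 98 in the same order. A turn of direction was counted only where the main fit or the alternative called the result. Of 274 results for genes described in the text, 25 turned direction under at least 1 alternative. With the second probe set these were Slc1a1 (0.301), Slc25a36 (0.296), Slc25a46 (0.429), Slc2a13 (0.422), Slc30a9 (0.829), Slc33a1 (0.509), Slc35b1 (-0.119), Slc38a1 (0.121), Slc6a8 (0.338) and Slc7a1 (0.099) at P60, Slc25a46 (-0.311), Slc2a13 (-0.093), Slc33a1 (-0.193), Slc39a3 (-0.138), Slc6a17 (0.214) and Slc6a8 (-0.628) at P40, Slc2a13 (-0.346) and Slc7a1 (-0.066) at P80, Slc35e3 (0.036) at P30, and for P80 against P30 Slc25a46 (-0.236) and Slc33a1 (-0.61) in Iso and Slc30a9 (-0.869) in Soc. With the Gapdh ratio they were Slc12a5 (0.178) and Slc25a4 (0.084) at P80 and Slc3a2 (0.092) at P60, and with quantile normalization Slc6a17 (0.096) at P40. The cause was not tested. The alternative with only the groups compared was not run for the mean over ages and the interaction.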
